A study of Mus musculus with 6 samples.

Results

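Interferon regulatory factor 7 (Irf7) is a transcription factor that stays inactive until it is phosphorylated, and 10 genes that carry the activating signal to it are described here: the receptors Tlr3 and Tlr4, the adaptors Myd88 and Ticam1, the ubiquitin ligases Traf3 and Traf6, and the kinases Irak1, Irak4, Tbk1 and Ikbke. They were chosen by name, as known adaptors and kinases upstream of Irf7, and every probe whose gene name in the scanner files was one of these symbols was taken. The arrays carried 19 such probes among 41174, of which 18 were bright enough to be tested. All 10 genes had a tested probe, among 15413 genes tested.

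The samples were 3 single-colour Agilent arrays of 4T1.2 cells made to express IRF7 from the pMSCV retroviral vector and 3 of 4T1.2 cells given the empty base vector. The design text calls these independent experiments. 4T1.2 is a bone-metastatic mouse mammary carcinoma line of BALB/c background. Both populations had passed through the same retroviral transduction, puromycin selection and single-cell cloning, and each is a pool of several clones. No stimulus is named in the labels, so the comparison is of basal expression. The p-values measure the spread between cultures of 1 pooled population per group, and differences between the clones that went into each pool cannot be told apart from the effect of IRF7.

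Toll-like receptors recognise microbial molecules and pass the signal through adaptor proteins. Tlr3 senses double-stranded RNA in endosomes and signals only through Ticam1 (also called TRIF), whereas Tlr4 senses lipopolysaccharide and uses both Myd88 and Ticam1. Ticam1 engages Traf3, which brings in Tbk1 and Ikbke, and these kinases phosphorylate Irf3 and Irf7. Myd88 assembles the kinases Irak4 and Irak1 with Traf6, the arm by which Irf7 is activated downstream of the endosomal receptors Tlr7 and Tlr9 in plasmacytoid dendritic cells. Activated Irf7 switches on type I interferon genes, and interferon in turn raises the expression of many genes of this same pathway.

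The probe sequences below come from the scanner files and are the first 30 of the 60 bases of each probe, 5′ to 3′. They are shown for the genes in which the agreement or disagreement of several probes bears on the result. Capitals mark bases that the pair of Ticam1 probes share.
Tlr3 A_51_P291906: gggcagttaaaaacatcctctattaataga
Tlr3 A_52_P85174: taatgctcatttttgagacgtttatagaat
Ticam1 A_51_P294017: gaaccccttcttgagactccAGAGTGACCA
Ticam1 A_51_P294020: AGAGTGACCAGGTTGGACCCCACCTAGATG
Irak1 A_51_P106743: gccagcatttgtgagcaaggcaagcagagt
Irak1 A_51_P106745: gacctgaagaaagtgatgaattccagagct
Irak1 A_52_P149835: agggaggcactaccagagaatcaagtgtga

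On mouse build mm7 the Tlr3 probes lie on the minus strand of chromosome 8, at 44182210 to 44182269 for A_51_P291906 and 44181930 to 44181989 for A_52_P85174, and do not overlap. The Ticam1 probes lie on the minus strand of chromosome 17, at 54428111 to 54428170 and 54428091 to 54428150. They share 40 bases, so they are not independent readings. The Irak1 probes lie on the minus strand of chromosome X, at 69401811 to 69401870 (A_51_P106743), 69402061 to 69402120 (A_51_P106745) and 69403785 to 69403844 (A_52_P149835), which places the first nearest the 3′ end of the gene. No genome or transcript model of mm7 was used here, so exons and untranslated regions are not assigned.

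The arrays were close in the share of spots above background and differed in brightness by group. Between 54.3% and 59.7% of spots were well above background, and the introduced gene was higher in every IRF7 array. Before scaling, the 75th percentile of the signal was 1299 to 1467 in IRF7 arrays and 1153 to 1298 in base-vector arrays. It was lowest in base-vector replicates 2 and 3 (1153 and 1174). Below, a scaled signal is the scanner's background-corrected signal with each array's 75th percentile set to 1000, and the log2 change is IRF7 minus base vector. The Irf7 probe A_51_P421876 read scaled signals of 3455, 3548 and 3416 in IRF7 cells, against 190, 169.5 and 179 in base-vector cells, a log2 change of 4.28 with an SE of 0.049 (limma adjusted p = 3.04e-07). Slide 1 held all 3 IRF7 arrays and base-vector replicate 1, and slide 2 held base-vector replicates 2 and 3. A value within slide 1 therefore rests on a single base-vector array, which is assumed to vary like the IRF7 arrays. Of 6 epithelial markers, 5 were above background on all arrays, including the keratins Krt8 and Krt18, and Krt19 was so on none. Of 6 myeloid markers, Cd68 was above background on all arrays, Csf1r on 3 IRF7 and 0 base-vector arrays, Lyz2 on 2 and 0, Adgre1 on 1 and 0, the pan-leukocyte gene Ptprc on 0 and 1, and Itgam on none. Their summed scaled signal was 538 to 661 in IRF7 arrays and 528 to 583 in base-vector arrays, most of it Cd68 (mean 476 in IRF7 cells and 475 in base-vector cells). The fibroblast and endothelium markers separated the groups, with a sum of 2531 to 2623 in IRF7 arrays and 5593 to 5681 in base-vector arrays. Pdgfra averaged 2379 in IRF7 cells and 5500 in base-vector cells, Cdh5 averaged 192 in IRF7 cells and 92.5 in base-vector cells, Col3a1 was above background on 0 IRF7 arrays and 1 base-vector array, and Pecam1 on none. The part of these markers in the results below was not tested. Fewer cells of a type and less RNA per cell cannot be told apart in such bulk samples.

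Of the 10 genes, 5 were higher in IRF7 cells (Tlr3, Myd88, Traf3, Irak1 and Tlr4), 2 were lower (Ticam1 and Traf6) and 3 did not pass the test (Irak4, Tbk1 and Ikbke). The test was limma's, fitted on all 15413 genes, with a threshold of 0.05 on the Benjamini-Hochberg adjusted p, and 61.0% of all genes passed it (31.8% higher, 29.2% lower). With 7 of 10, or 70.0%, passing, the group stood near that background. The groups of 3 arrays did not overlap for 8 of the 10 genes, against 67.8% of all genes. The median absolute log2 change was 0.24 for the 10 genes and 0.24 for all genes tested. A single member, Tlr3, passed with at least a 2-fold change, as did 5.88% of all genes.

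**Figure D1:**
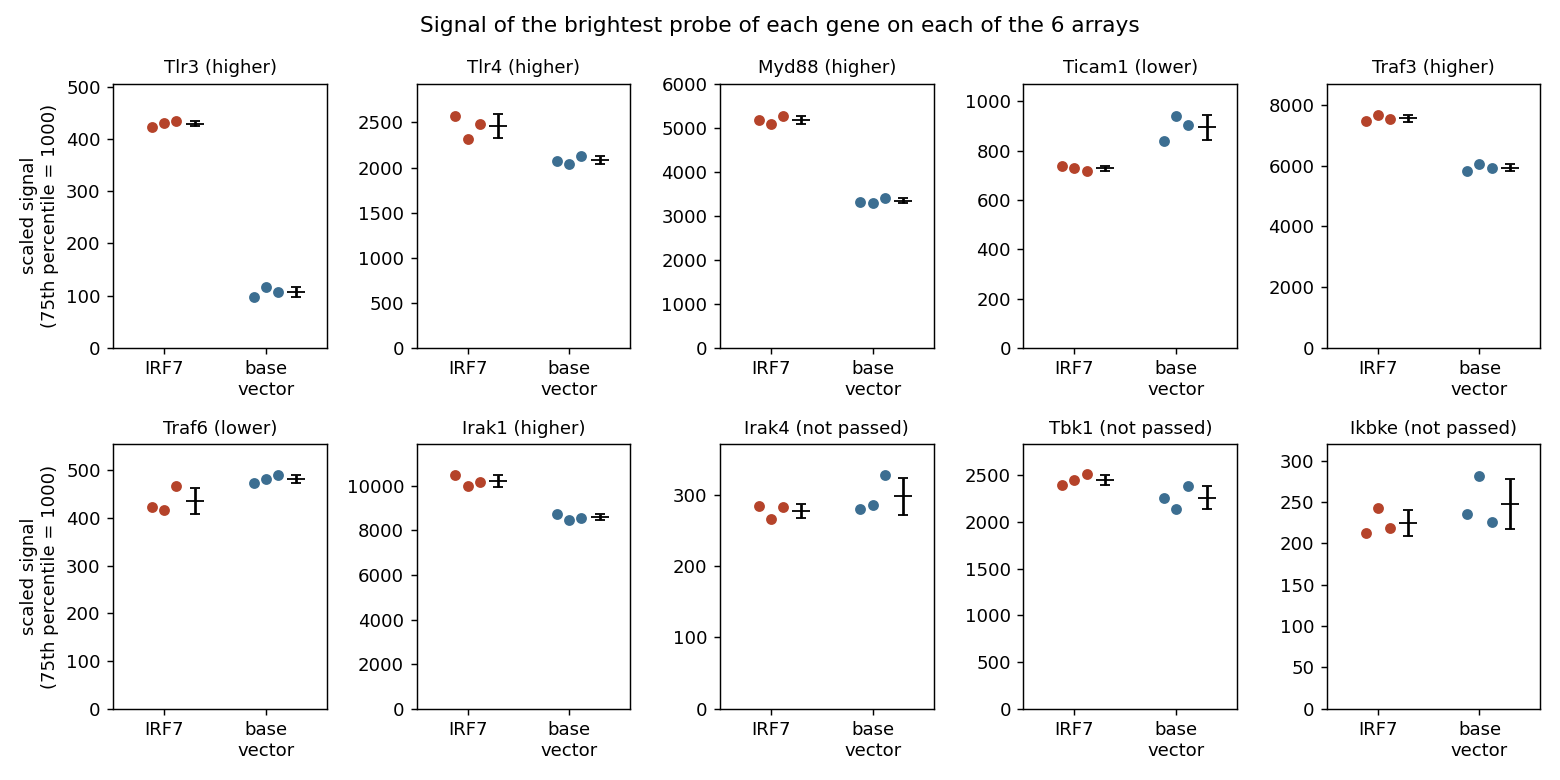
Scaled signal (75th percentile of each array set to 1000, linear axes from 0) of the brightest probe of each of the 10 genes, with IRF7 arrays in red on the left and base-vector arrays in blue on the right; points are arrays, and the black marks are the mean with the SD (n = 3 each). Tlr3 stands apart at 424 to 434 in IRF7 cells and 98.2 to 117 in base-vector cells, while the groups of Irak4 and Ikbke overlap.

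The double-stranded RNA receptor Tlr3 changed most among the 10 genes. Its brighter probe, A_52_P85174, read scaled signals of 424, 432 and 434 in IRF7 cells, against 98.2, 117 and 107 in base-vector cells. The 3 IRF7 arrays lay close together and far above all base-vector arrays. In IRF7 cells Tlr3 was 4.02-fold higher (log2 change 2.01, SE 0.066, limma adjusted p = 7.52e-06), and 2.13 on the log2 scale within slide 1. The other probe, A_51_P291906, read 360, 394 and 390 in IRF7 cells and 96.7, 84.6 and 100.1 in base-vector cells. In the fit of every kept probe its log2 change was 2.03 (SE 0.076), against 2.01 for the brighter probe, so both parts of the transcript gave the same size of change within error. In base-vector cells Tlr3 was dim but above background on all 3 arrays. A model-based background correction (normexp with an offset of 50), which shrinks differences between dim signals, gave 1.59. Within 5 Mb on either side of Tlr3, the median log2 change of the 38 other tested genes was 0.22, with 23 higher and 3 lower. The part of that regional shift in the Tlr3 value was not tested.

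The lipopolysaccharide receptor Tlr4 changed little by comparison. Its probe A_51_P300806 (chromosome 4, 66276388 to 66276447, plus strand) is printed in 10 spots per array, which were averaged. It read 2572, 2318 and 2488 in IRF7 cells, against 2075, 2042 and 2130 in base-vector cells. The lowest IRF7 array lay just above the highest base-vector array, and the log2 change was 0.24 (SE 0.047, limma adjusted p = 0.00615). The call ended within slide 1 (log2 change 0.24, adjusted p = 0.0655) and with median centring of the arrays (0.21, adjusted p = 0.156). A second probe named Tlr4 in the files, A_52_P24230, lies 86.8 kb further along the chromosome and was designed on a separate cDNA. It read 43.8 to 51.8 in IRF7 cells and 37.1 to 42.9 in base-vector cells, was above background on 2 of 3 base-vector arrays, and did not pass in the fit of every kept probe (log2 change 0.22, adjusted p = 0.0738). Whether it reports Tlr4 was not tested.

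The 2 adaptors moved in opposite directions. Myd88, the adaptor shared by most Toll-like receptors and the interleukin-1 receptor, had 1 probe (A_52_P282762, chromosome 9, 119016408 to 119016467, minus strand), also printed in 10 spots. It read 5179, 5092 and 5262 in IRF7 cells, against 3319, 3296 and 3415 in base-vector cells. The arrays of each group lay close together and far from the other group. Myd88 was 1.55-fold higher (log2 change 0.63, SE 0.030, limma adjusted p = 2.41e-05), with 0.64 within slide 1.

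Ticam1, the adaptor of Tlr3 and of the endosomal arm of Tlr4, was lower in IRF7 cells. Probe A_51_P294017 read 738, 731 and 719 in IRF7 cells, against 839, 941 and 904 in base-vector cells. All IRF7 arrays lay below all base-vector arrays. Ticam1 was 1.23-fold lower (log2 change -0.29, SE 0.048, limma adjusted p = 0.00299), and -0.20 within slide 1, where it still passed (adjusted p = 0.0256). The overlapping probe A_51_P294020 read 657, 676 and 706 in IRF7 cells and 821, 876 and 896 in base-vector cells, a log2 change of -0.35 in the fit of every kept probe. Without scaling between arrays the log2 change of Ticam1 was -0.09 and did not pass (adjusted p = 0.375). In those unscaled values the median of all genes moved to 0.23, against 0.03 in the scaled ones.

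The ubiquitin ligases also differed from one another. Traf3, which links Ticam1 to Tbk1 and Ikbke, read 7461, 7680 and 7538 in IRF7 cells, against 5811, 6051 and 5931 in base-vector cells, from its 1 probe (A_51_P469411, chromosome 12, 108783249 to 108783308, plus strand). The groups were well separated. Traf3 was 1.27-fold higher (log2 change 0.35, SE 0.030, limma adjusted p = 0.000208), with 0.38 within slide 1.

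Traf6, which acts with Irak1 and Irak4 below Myd88, passed only narrowly. Its brightest probe (A_52_P510215, chromosome 2, 101551219 to 101551278, plus strand) read 423, 417 and 467 in IRF7 cells, against 474, 483 and 491 in base-vector cells. IRF7 replicate 3 lay close to the lowest base-vector array. The log2 change was -0.15 (SE 0.051, limma adjusted p = 0.0467). In the limma fit of every kept probe this probe did not pass (adjusted p = 0.0507). A further probe, A_51_P495259, was designed on a separate cDNA, and whether it reports Traf6 was not tested. It read -0.15 as well and did not pass in that fit either (adjusted p = 0.0770). The call of Traf6 ended under 12 of 19 alternative settings, among them the fit within slide 1 (-0.12, adjusted p = 0.293). It ended without any one of base-vector replicates 1, 2 and 3 or IRF7 replicates 1 and 2 (adjusted p = 0.0766 to 0.132), and held without IRF7 replicate 3 (-0.20). Unscaled values read 0.05.

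The kinases of the Myd88 arm gave no single answer. Irak1, which is phosphorylated by Irak4 and can itself phosphorylate Irf7, had 3 probes along the gene. The one nearest the 3′ end, A_51_P106743, read 10493, 9990 and 10184 in IRF7 cells, against 8740, 8480 and 8573 in base-vector cells. These groups did not overlap, and the log2 change was 0.25 (SE 0.032, limma adjusted p = 0.00104), with 0.23 within slide 1.

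The other Irak1 probes did not pass. A_51_P106745 read 2851, 2859 and 2948 in IRF7 cells, against 2750, 2779 and 2649 in base-vector cells, a smaller rise without overlap. A_52_P149835 read 1132, 1173 and 1108 in IRF7 cells, against 1185, 1268 and 1123 in base-vector cells, with overlap. In the fit of every kept probe their log2 changes were 0.08 (adjusted p = 0.0857) and -0.07 (adjusted p = 0.337). With all Irak1 probes averaged the gene did not pass (0.09, adjusted p = 0.0541), and the rise of Irak1 passed for 1 of its 3 probes. Median centring also ended it (0.22, adjusted p = 0.105).

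Irak4, the kinase that first joins Myd88, did not pass. Its brighter probe, A_52_P67440 (chromosome 15, 94571157 to 94571216), read 284, 267 and 283 in IRF7 cells, against 281, 286 and 328 in base-vector cells. The groups overlapped (log2 change -0.10, 95% interval -0.27 to 0.07, both here and for the kinases below from the fit of every kept probe; limma adjusted p = 0.270). The dimmer probe, A_52_P166266, spans 728 bases of the genome and so is split between exons. It read 85.4 to 98.1 in IRF7 cells and 99.6 to 108 in base-vector cells, without overlap (log2 change -0.17, adjusted p = 0.0620). With both probes averaged Irak4 passed as lower (-0.13, adjusted p = 0.0273), and within slide 1 it read -0.01.

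The kinases that phosphorylate Irf7 directly in the Ticam1 arm did not pass the test. Tbk1, expressed in most cell types, had 2 probes that each bridge exons, A_52_P532029 (chromosome 10, 121041647 to 121041870, minus strand) and A_51_P169850 (121042839 to 121044093). The brighter, A_52_P532029, read 2392, 2447 and 2508 in IRF7 cells, against 2254, 2135 and 2381 in base-vector cells. The lowest IRF7 array lay just above the highest base-vector array, and the log2 change of 0.12 (95% interval -0.0027 to 0.24) did not pass (limma adjusted p = 0.0842). The other probe read 0.07 (95% interval -0.02 to 0.15). Tbk1 passed as higher without scaling (0.32), with probes averaged (0.09), with eBayes trend and robust (0.12) and without base-vector replicate 3 (0.16).

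Ikbke, the inducible relative of Tbk1, had 1 probe (A_51_P222280, chromosome 1, 131159351 to 131159410, minus strand). It read 212.5, 242 and 219 in IRF7 cells, against 235, 282 and 226 in base-vector cells. The groups overlapped, and the base-vector arrays spread more widely. The log2 change was -0.14 (95% interval -0.38 to 0.11, limma adjusted p = 0.283). That interval holds falls larger than that of Ticam1 as well as small rises, and no alternative setting called Ikbke in either direction.

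**Figure D2:**
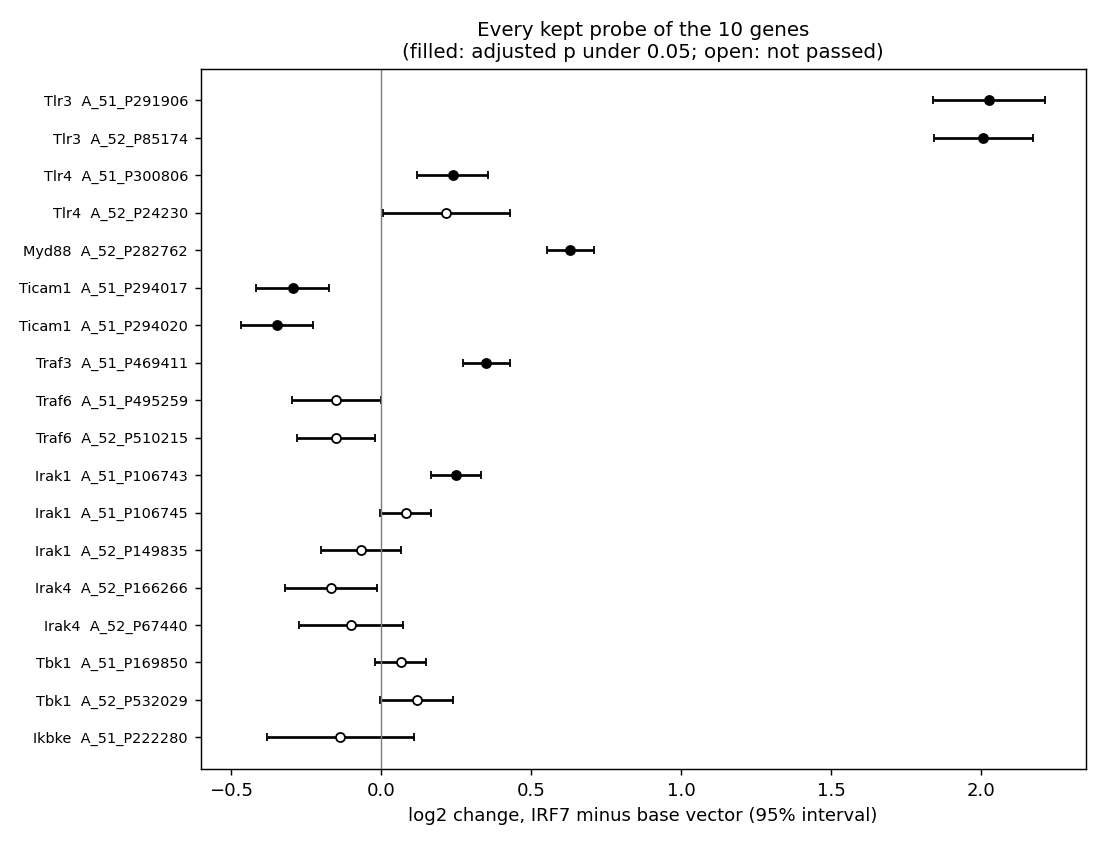
Log2 change (IRF7 minus base vector) with its 95% interval for each of the 18 kept probes of the 10 genes, from limma fitted on all 23517 kept probes; filled points passed an adjusted p of 0.05. The Tlr3 probes lie together near 2, whereas the 3 Irak1 probes run across 0.25, 0.08 and -0.07.

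At probe level, 6 of the 18 kept probes were higher, 2 were lower and 10 did not pass, against 58.6% of all 23517 kept probes passing in either direction. The 2 lower ones were the overlapping Ticam1 probes. The 7 genes with more than 1 kept probe share those probes' RNA, so the probes are repeat readings of a gene and not replicates. For Tlr3, Ticam1, Traf6, Irak4 and Tbk1 the signs of all kept probes were the same, although the dimmer kept Traf6 probe was designed on a separate cDNA. Irak1 was the gene whose probes differed in sign.

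The 10 genes lie on 10 different chromosomes. Medians of the log2 change over other tested genes within 5 Mb ran between -0.11 (34 genes around Traf6) and 0.22 (38 genes around Tlr3). Around Traf3 the 76 neighbours had a median of 0.17, beside the gene's own 0.35, and around Myd88 the 75 neighbours had a median of 0.11, beside 0.63. The part of these neighbourhoods in the members' changes was not tested.

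Promoter sequences of RefSeq (build GRCm38.p6), from 250 bases before to 50 bases after the annotated start, were available here for 9 of the 10 genes (10 promoters); Tlr4 is named only. They were searched on both strands for AANNGAAA, the letters of the element that interferon regulatory factors bind, and for the longer core of the interferon-stimulated response element that contains it (GAAA, any 2 bases, GAAA). These letters were chosen after the expression values were seen. The promoters of the 2 genes with the largest rises are shown with the AANNGAAA match (or its reverse, TTTCNNTT) in capitals.
Tlr3, chr8:45410331-45410630, minus strand: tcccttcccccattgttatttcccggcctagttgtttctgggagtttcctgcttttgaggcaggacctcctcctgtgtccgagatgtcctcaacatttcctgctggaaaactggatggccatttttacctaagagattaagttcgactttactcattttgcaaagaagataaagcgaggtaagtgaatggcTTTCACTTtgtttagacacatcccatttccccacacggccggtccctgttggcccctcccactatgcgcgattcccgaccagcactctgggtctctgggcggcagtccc
Myd88, chr9:119339969-119340268, minus strand: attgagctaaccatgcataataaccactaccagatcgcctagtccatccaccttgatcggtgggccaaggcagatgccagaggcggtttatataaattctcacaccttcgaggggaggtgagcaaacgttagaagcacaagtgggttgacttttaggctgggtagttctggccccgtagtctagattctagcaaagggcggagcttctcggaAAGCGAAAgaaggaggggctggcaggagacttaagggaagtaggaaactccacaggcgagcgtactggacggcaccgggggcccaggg

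AANNGAAA was found in 3 of the 9 genes' promoters, those of Tlr3, Myd88 and Ikbke, and in 23.9% of all 32851 promoters of this length. The longer core was found in the promoter of Myd88 alone among the 9, beginning 40 bases before the start, and in 3.44% of all promoters. A match is a run of letters and not a measured site. Ikbke carried a match without passing the test, and Traf3, Irak1, Ticam1 and Traf6 passed without one. The part of these matches in the members' changes was not tested.

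The 3 genes whose profile over the 6 arrays was closest to that of Tlr3 were Dll4, Ly6a and Sp100. Likeness was the root mean square difference of log2 levels, each gene centred on its own mean, and was 0.065 for Dll4, 0.080 for Ly6a and 0.082 for Sp100. Their log2 changes were 2.05 for Dll4, a Notch ligand, 2.00 for Ly6a, a membrane protein also known as Sca-1, and 2.06 for Sp100, a nuclear body protein. With 2 groups of 3 arrays this likeness mostly restates that the changes were of equal size.

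The wider Toll-like receptor pathway was read from a list of 63 further genes, of which 60 had a probe and 47 were bright enough to test. In IRF7 cells 16 were higher and 13 lower, and 18 did not pass, so 61.7% passed, against 61.0% of all genes. Without scaling all 16 higher calls were kept and 1 of the 13 lower ones, that of Tlr6. Median centring ended 7 of the higher calls (Azi2, Birc3, Cnpy3, Ripk1, Tab3, Tlr2 and Traf1) and 5 of the lower ones (Fadd, Otub1, Rnf216, Tlr9 and Ube2v1). Averaging all probes of a gene ended the higher calls of Birc3, Chuk and Ripk1. The median log2 change was 0.07, against 0.03 for all genes. A 2-fold change that passed was seen in 2 of them, Trim30a and Inpp5d.

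**Figure D3:**
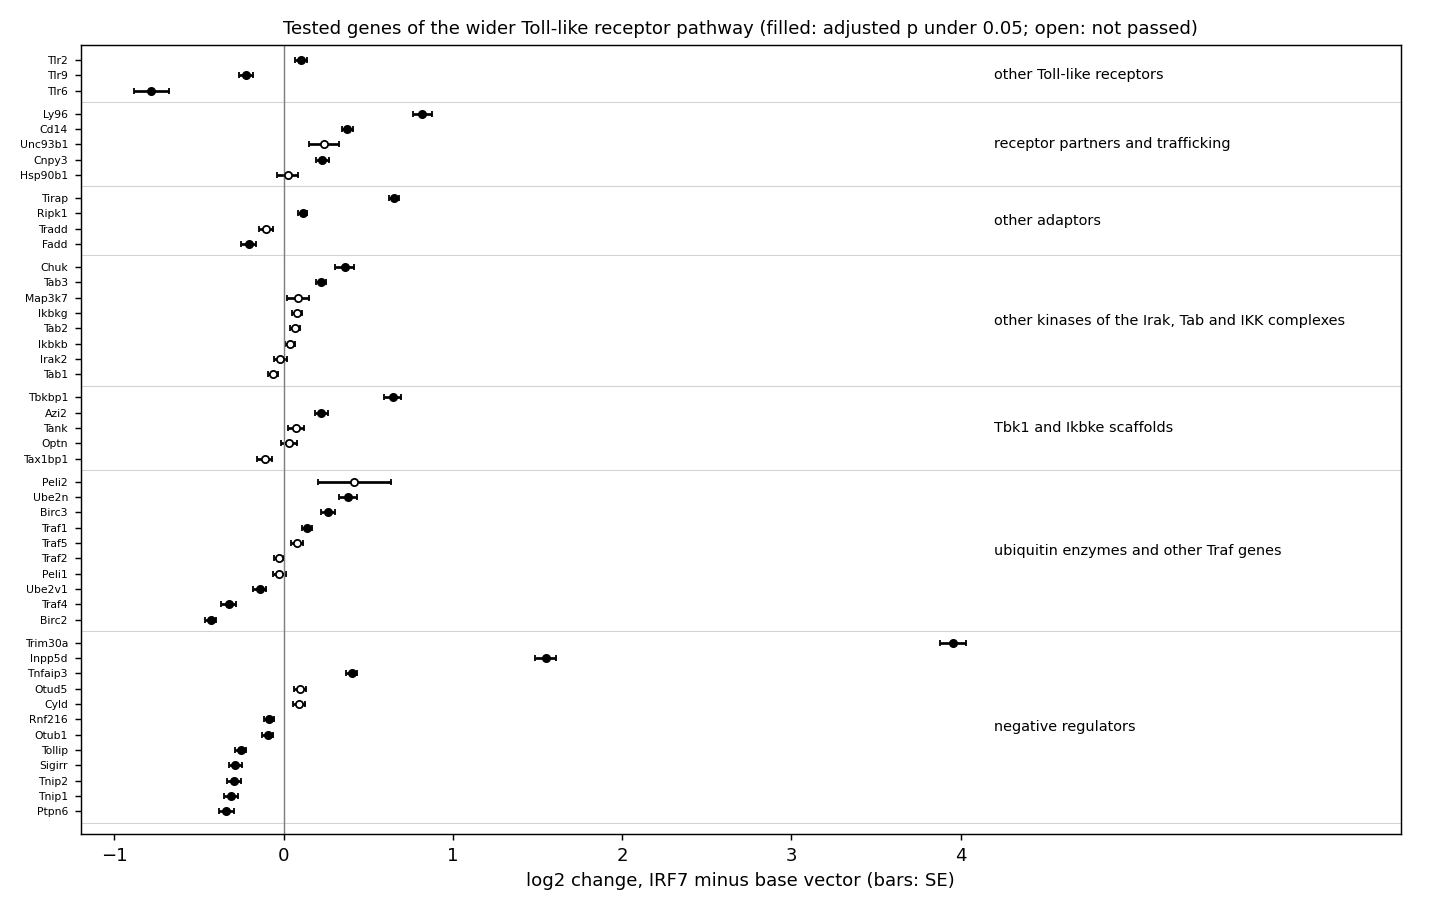
Log2 change (IRF7 minus base vector) with its SE for the 47 tested genes of the wider pathway, by role; filled points passed an adjusted p of 0.05. Most lie within 0.5 of 0, with Trim30a at 3.96 and Inpp5d at 1.55 far to the right and Tlr6 lowest at -0.78.

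Of the other Toll-like receptors 3 of 10 could be tested. Tlr6, a partner of Tlr2 in sensing bacterial lipopeptides, was lower (scaled signal 186 ± 25.6 in IRF7 cells and 318 ± 16.6 in base-vector cells, SD, n = 3 each; log2 change -0.78, SE 0.10, limma adjusted p = 0.00126). Tlr9, the receptor for unmethylated DNA that acts through Myd88 and Irf7, was also lower (-0.22, adjusted p = 0.00470), and Tlr2 was higher (0.10, adjusted p = 0.0389). Within slide 1 neither Tlr9 (-0.17, adjusted p = 0.0772) nor Tlr2 (0.11, adjusted p = 0.133) passed. Tlr7, the single-stranded RNA receptor, was above background on 0 arrays, Tlr1 and Tlr8 on 1 each and Tlr5 on 2. Tlr11, Tlr12 and Tlr13 had no probe under these names.

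Of 5 tested genes that help the receptors, 3 passed, all as higher, a share near the 61.0% of all genes that passed. Ly96 (MD-2), which forms the lipopolysaccharide-binding site with Tlr4, read 1853 ± 56.3 in IRF7 cells and 1051 ± 66.4 in base-vector cells (SD, n = 3 each), a log2 change of 0.82 (SE 0.055, limma adjusted p = 8.55e-05). Cd14, the lipopolysaccharide co-receptor, was higher by 0.38 (adjusted p = 0.000223), and Cnpy3, a chaperone of Toll-like receptors, by 0.23 (adjusted p = 0.00338). Unc93b1, which carries nucleic acid receptors to endosomes, read 0.24 without passing (adjusted p = 0.0561), and 0.08 within slide 1. Hsp90b1, the endoplasmic reticulum chaperone gp96, read 0.02. Cd180, Ly86 and Lbp were too dim to test. Among the 6 myeloid markers, mean scaled signals were 35.4 in IRF7 cells and 28.7 in base-vector cells for Csf1r. In the same order they were 25.8 and 11.6 for Lyz2, 30.9 and 7.53 for Adgre1, and 476 and 475 for Cd68. Ptprc (11.7 and 18.9) and Itgam (5.28 and 6.88) read lower in IRF7 cells. Cd68 alone of the 6 was above background on all arrays. The part of these markers in the Cd14 and Ly96 values was not tested.

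Among the other adaptors, Tirap, which bridges Tlr2 and Tlr4 to Myd88, rose by about as much as Myd88. It read 13123 ± 23.8 in IRF7 cells and 8354 ± 144 in base-vector cells (SD, n = 3 each), a log2 change of 0.65 (SE 0.027, limma adjusted p = 1.54e-05), with 0.67 from a second probe. Ripk1 was higher by 0.11 (adjusted p = 0.0122) and did not pass within slide 1 (0.10, adjusted p = 0.118). Further Ripk1 probes read 0.16 and -0.03 without passing in the fit of every kept probe. Fadd, an adaptor of death receptors, was lower (-0.21, adjusted p = 0.00864), but did not pass with slide as a fixed block (-0.17, adjusted p = 0.0977), with median centring (-0.24, adjusted p = 0.100) or without scaling (-0.0065, adjusted p = 0.958). A second Fadd probe passed as lower in the limma fit of every kept probe (-0.29, adjusted p = 0.0376). Tradd read -0.10 without passing (adjusted p = 0.0650). Ticam2, which couples Tlr4 to Ticam1, Sarm1 and Pik3ap1 were too dim to test.

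Most kinases and scaffolds were near 0. Of 8 tested kinases and their partners, Chuk (IKK alpha, 0.36, limma adjusted p = 0.00216) and Tab3 (0.22, adjusted p = 0.00150) were higher, and none was lower. Among all genes 31.8% were higher and 29.2% lower. Irak2 (-0.02), Map3k7 (0.08), Tab1 (-0.06), Tab2 (0.07), Ikbkb (0.04) and Ikbkg (0.08) did not pass, and Irak3 was too dim. A second Chuk probe read 0.07 and did not pass, and a second Tab2 probe passed as lower (-0.14, adjusted p = 0.0451 in the fit of every kept probe).

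Of 5 scaffolds of Tbk1 and Ikbke, Tbkbp1 (SINTBAD) was higher by 0.64 (SE 0.051, limma adjusted p = 0.000159) and Azi2 (NAP1) by 0.22 (adjusted p = 0.00419). A second Tbkbp1 probe read 0.31, and 2 further Azi2 probes read 0.24 and 0.29. Tank (0.07), Optn (0.03) and Tax1bp1 (-0.11) did not pass, although 1 of 2 further Tax1bp1 probes passed as lower (-0.15, adjusted p = 0.0160 in the fit of every kept probe).

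Ubiquitin enzymes and the other Traf genes went both ways, with 3 higher, 3 lower and 4 not passing of 10. That division is near that of all genes, of which 31.8% were higher and 29.2% lower. Ube2n (Ubc13), the conjugating enzyme with which Traf6 builds its chains, was higher by 0.38 (SE 0.053, limma adjusted p = 0.00155), and its cofactor Ube2v1 was lower by a log2 change of -0.14 (adjusted p = 0.0208). Birc2 (cIAP1) was lower (-0.43, adjusted p = 0.000160), as was Traf4 (-0.33, adjusted p = 0.00162), and Traf1 was higher (0.14, adjusted p = 0.00810). Birc3 (cIAP2) was higher from its brighter probe (0.26, adjusted p = 0.00245) and read -0.41 without passing from the other. In the fit of every kept probe, further Ube2v1 probes passed as lower (-0.24 and -0.32). A second probe of Traf4 (-0.13) and of Birc2 (-0.58) also passed as lower. Further Ube2n probes passed as higher (0.45 and 0.52), the latter above background on 0 base-vector arrays. Within slide 1 Ube2v1 (adjusted p = 0.0919) and Traf1 (adjusted p = 0.0826) did not pass. Traf2 (-0.03), Traf5 (0.08), Peli1 (-0.03) and Peli2 (0.42, SE 0.22, above background on 1 base-vector array) did not pass, and Peli3 was too dim.

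Negative regulators held both the largest rises and the most falls of the list, with 3 higher and 7 lower of 12, against 31.8% higher and 29.2% lower of all genes. Without scaling between arrays none of the 7 passed as lower, and Otub1 (0.11) and Rnf216 (0.12) turned sign. Trim30a, which in mouse restrains signalling from Tab2 and Tab3 and has close relatives whose RNA these probes may share, read 2317 ± 204 in IRF7 cells and 149.0 ± 7.92 in base-vector cells (SD, n = 3 each). It was 15.5-fold higher (log2 change 3.96, SE 0.075, limma adjusted p = 1.34e-06), with 3.83 from a second probe. Inpp5d, the inositol phosphatase Ship1 of blood cells, was 2.92-fold higher (1.55, SE 0.062, adjusted p = 1.34e-05), and 1.17 with normexp. Tnfaip3 (A20), a ubiquitin-editing enzyme, was higher by 0.40 (adjusted p = 0.000158). The falls were smaller: Ptpn6 (-0.34), Tnip1 (-0.31), Tnip2 (-0.29), Sigirr (-0.29), Tollip (-0.25), Otub1 (-0.10, adjusted p = 0.0461) and Rnf216 (-0.08, adjusted p = 0.04998). In the limma fit of every kept probe, a second Ptpn6 probe did not pass (-0.12, adjusted p = 0.308). Further Tollip probes read -0.38 (adjusted p = 0.0256) and -0.10 (adjusted p = 0.330). A second Otub1 probe passed as lower (-0.15, adjusted p = 0.0166), and further Rnf216 probes read -0.23, 0.03 and -0.24 without passing. Otub1 and Rnf216 did not pass within slide 1 (adjusted p = 0.277 and 0.224). Cyld (0.09) and Otud5 (0.10) did not pass, and Tnip3 was too dim.

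**Figure D4:**
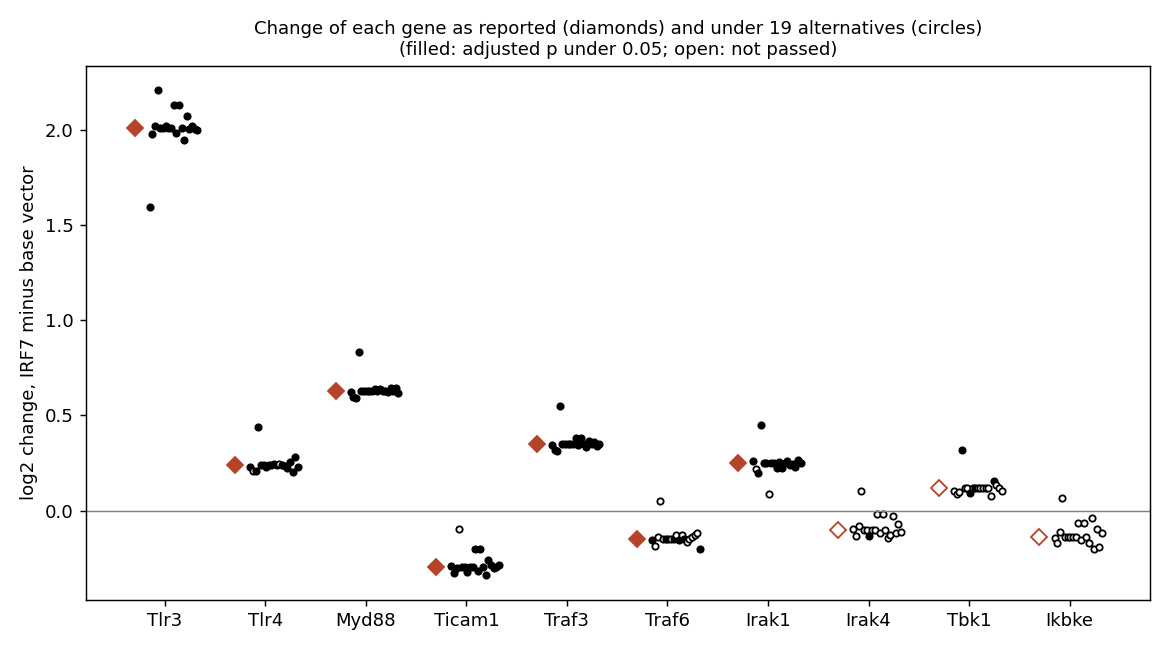
Log2 change (IRF7 minus base vector) of each of the 10 genes as reported (red diamonds) and under 19 alternative settings (black circles); filled points passed an adjusted p of 0.05. Tlr3, Myd88 and Traf3 passed under all 19, between 1.59 and 2.21, 0.59 and 0.83, and 0.31 and 0.55.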

How the data were processed

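Total RNA of 6 cultures was labelled with Cy3 and read on 1-colour arrays. The submitters' processing notes name Agilent Feature Extraction 9.5.3.1. The authors deposited its processed signal, which the file headers describe as a linear intensity after subtraction of background and correction of spatial trends; arrays had not been brought to a common scale. The deposited value table equals it (largest difference 0) and gave the setting without scaling.

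Control spots (1639 of 45018) and 111 to 121 outlier spots per array were left out, spots of a probe were averaged, and log2 of the signal minus the array's 75th percentile (1153 to 1467) was tested. Names came from RefSeq (GRCm38.p6) by accession for 22951 of 41174 probes. Probes well above background on at least 3 arrays were kept (23517), the brightest standing for each gene, and limma 3.58.1 (R 4.3.3) compared the groups with no block. A second fit used every kept probe. The script was tested on simulated data. The members, the pathway list and the rule for naming genes (all members, all list genes, Irf7 and the 3 genes most like the most changed member) were chosen with earlier results of these data known. Alternatives were normexp, median centring, quantile normalization, no scaling, other probe filters and rules, eBayes with trend and robust, slide and replicate number as blocks, slide 1 alone, and each array left out. A further promoter motif that was searched is not reported here.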

Additional observations from a re-analysis of the deposited data

Results flagged for a closer look

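One member probe lay outside the tests and still gave a signal. The Traf6 probe A_52_P529306 (mm7, chromosome 2, 101545043 to 101545102), designed on a separate cDNA, was well above background on IRF7 replicate 3 alone, at a scaled signal of 29.7. It read 5.2 and 4.3 on the other IRF7 arrays, against 5.5 to 6.2 on the base-vector arrays. A single array carries it, so it was given no test.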

How the results depend on the processing

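Of 190 values of the 10 genes under 19 alternatives, 166 kept their direction and side of the threshold. The alternatives are not separate checks. Both other probe filters, every kept probe fitted on its own, eBayes with trend and robust, and the replicate block left each member's log2 change as reported. Under these only the adjusted p could differ. Slide as a fixed block and slide 1 alone gave the same log2 changes as each other. Of the counts reported as 5 higher and 2 lower members, median centring gave 3 and 1. With all probes of a gene averaged, Irak4 joined Ticam1 and Traf6 as lower, and Tbk1 took the place of Irak1 among the higher members. The lower members numbered 0 without scaling, and 1 with quantile normalization, no filter on dim probes, every probe fitted on its own, slide as a fixed block and slide 1 alone, and 1 to 2 with an array left out. Pathway genes (16 higher, 13 lower) numbered 9 and 8 with median centring, and the lower ones 1 without scaling and 8 with slide as a fixed block. Of all genes, 4901 were higher and 4500 lower (52.1% of calls higher). Higher genes numbered 2819 with median centring. Lower genes numbered 1703 without scaling (79.1% of calls higher, as the median log2 change moved to 0.23), and 9728 with no filter (32.6% higher), where more genes were tested. The other causes were not tested.

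Signs turned without scaling for Traf6 (0.051), Irak4 (0.10), Ikbke (0.065), Tradd (0.10), Irak2 (0.18), Tab1 (0.14), Tax1bp1 (0.087), Traf2 (0.17), Ube2v1 (0.060), Peli1 (0.17), Otub1 (0.11) and Rnf216 (0.12). They turned with median centring for Hsp90b1 (-0.0086) and Optn (-0.0013), with probes averaged for Tab2 (-0.036), Tank (-0.022) and Birc3 (-0.074), and both when slide was a block and in slide 1 alone for Hsp90b1 (-0.082), Map3k7 (-0.019), Optn (-0.040) and Peli1 (0.033). With an array left out, Hsp90b1 ran from -0.013 to 0.077, Optn from -0.0049 to 0.067 and Irak2 from -0.040 to 0.0073. None of these reversed values passed.

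Groups share replicate numbers, and deviations of same-numbered arrays correlated at 0.05, 0.18 and 0.23, each the highest for its array, which is a hint from the data and not the design. With replicate number as a block (replicate block), 5 members were higher and 2 lower, and 5004 genes were higher and 4693 lower, so no member count changed. Signals near background limit the dimmest genes.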

Other observations

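The Irak1 probes can be compared within an array, which removes the scaling between arrays. The log2 ratio of A_51_P106743, nearest the 3′ end, to A_52_P149835, which lies 1974 bases away, was 3.21, 3.09 and 3.20 in IRF7 cells, against 2.88, 2.74 and 2.93 in base-vector cells. The groups did not overlap, and the mean ratio was higher by 0.32 in IRF7 cells. The ratio to the middle probe, A_51_P106745, was higher by 0.17, also without overlap. The exact two-sided permutation p was 0.1 for each ratio, the smallest that 3 arrays against 3 allow, and the 3 ratios share arrays and probes. The probes were compared after their values were seen.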
